A study of Mus musculus with 9 samples.

Results

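The genes described here were 10 immediate early transcription factors, Fos, Fosb, Fosl2, Jun, Junb, Jund, Egr1, Egr2, Egr3 and Ier2, in whole mouse ovaries with and without estrogen receptor beta (ERβ). They were chosen by gene symbol, and each symbol matched 1 of the 46078 genes of the count table. RNA-seq libraries were made from 5 wild-type (WT) and 4 ERβKO ovaries on the C57BL/6J background, and the design text calls the libraries of a genotype biological replicates. In ERβKO mice exon 3 of Esr2, the gene of ERβ, is deleted in the germline, by crossing floxed mice with a deleter line that carries Cre at the Rosa26 locus, and the WT mice did not carry this deletion. Every library is labelled Untreated, although the treatment text shared by all libraries describes high-fat and control diets and injections of the ERβ agonist DPN, and which diet these mice ate is not given. The age given for the mice of all experiments of the study is 4 to 20 weeks, and the stage of the estrous cycle was not fixed. All 10 genes passed the filter on low counts that left 16722 genes to test.

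Immediate early genes are transcribed within minutes of a signal, from factors already present in the cell, and their RNA decays quickly. FOS and JUN proteins pair through leucine zippers to form the AP-1 factor, EGR proteins bind GC-rich DNA through zinc fingers, and Ier2 encodes a short-lived nuclear protein of the same early response. In the ovary, luteinizing and follicle-stimulating hormone act through cyclic AMP and protein kinases on granulosa cells, where Fos, Jun and Egr1 are well-known early targets around ovulation.

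Of the 10 genes, 7 had a promoter in the RefSeq table of the mouse genome GRCm38.p6. In the 250 bases before each annotated start, 6 motifs were searched on both strands: the cyclic AMP response element (CRE) TGACGTCA, its half-site TGACG, which the full element contains, the AP-1 site TGANTCA, the EGR site GCGNGGGCG, the estrogen response element, an inverted repeat of GGTCA around 3 bases, and the CArG box bound by serum response factor. The 4 windows below are shown because each holds at least 1 CRE half-site, a part of the element through which cyclic AMP can act on early genes. Other Egr2 windows that overlap the one shown hold the same half-sites and are left out. Each is written 5′ to 3′ on the strand of its gene, with matches in capitals, and position -1 is the base before the start.
Fos promoter, chr12:85473640-85473889, plus strand: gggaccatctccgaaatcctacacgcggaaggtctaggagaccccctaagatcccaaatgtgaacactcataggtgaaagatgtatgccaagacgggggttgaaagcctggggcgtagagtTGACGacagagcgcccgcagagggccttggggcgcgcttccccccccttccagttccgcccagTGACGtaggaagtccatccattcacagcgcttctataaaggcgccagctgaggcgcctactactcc
Fosb promoter, chr7:19310052-19310295, minus strand: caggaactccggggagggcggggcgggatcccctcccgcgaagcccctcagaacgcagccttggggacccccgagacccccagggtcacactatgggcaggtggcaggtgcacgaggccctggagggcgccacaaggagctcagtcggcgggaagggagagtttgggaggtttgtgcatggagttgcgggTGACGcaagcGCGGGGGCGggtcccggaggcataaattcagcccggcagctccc
Junb promoter, chr8:84978749-84978998, minus strand: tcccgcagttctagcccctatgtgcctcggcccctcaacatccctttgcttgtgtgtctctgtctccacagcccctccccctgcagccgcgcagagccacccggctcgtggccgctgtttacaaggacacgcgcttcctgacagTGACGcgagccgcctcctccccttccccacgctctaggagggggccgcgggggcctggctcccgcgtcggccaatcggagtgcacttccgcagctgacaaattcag
Egr2 promoter, chr10:67537619-67537868, plus strand: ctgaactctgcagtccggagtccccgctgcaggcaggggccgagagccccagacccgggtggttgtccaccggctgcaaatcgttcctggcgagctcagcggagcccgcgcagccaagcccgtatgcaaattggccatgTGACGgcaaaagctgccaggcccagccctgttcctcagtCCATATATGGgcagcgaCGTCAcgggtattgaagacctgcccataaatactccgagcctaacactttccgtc
The Fos window holds half-sites starting at -129 and -66, and the Junb window holds 1 at -106. In the Fosb window a half-site at -60 is followed by an EGR site at -50, both counted from the start, and the 6 bases nearest the start, which lie in an annotated exon, are not shown. The Egr2 window, which belongs to 1 of 5 annotated starts of this gene, holds half-sites at -111 and -55 on either side of a CArG box at -72. A half-site was found in 17.8% of all 32851 promoters of the table, an EGR site in 4.70% and a CArG box in 1.47%. The full CRE (1.55% of all promoters), the AP-1 site (6.75%) and the estrogen response element (0.0639%) were not found in any window of these 7 genes. The windows of Jun and Jund held none of the 6 motifs, and the only match in the window of Fosl2, which lies within an annotated exon and is not shown, was an EGR site at -79. Such matches describe the letters only, and no binding was measured in these RNA-seq libraries. In separate ChIP-seq of ERβ in WT ovaries, the study names Fosl2 among its regulated genes with an ERβ site in the promoter. The promoter region of the study was wider than the window searched here.

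The WT libraries held 12353740 to 16519975 counted fragments and the ERβKO libraries 13088728 to 18717510. Esr2 was counted over its whole length and therefore does not check the deletion, with 16.7 ± 4.46 FPKM over the 5 WT libraries and 16.1 ± 5.55 FPKM over the 4 ERβKO libraries (SD). On the first principal component of all tested genes, WT replicate 2 lay at 9.43, apart from the other WT libraries (-43.8 to -15.6) and nearer to the ERβKO libraries (19.4 to 35.3), and results that rest on it are given without it. Oocyte markers summed to between 32.4 and 141 FPKM over the 9 libraries, and all 7 passed the filter on low counts. The 3 markers of the oviduct, which lies beside the ovary, summed to between 1319 and 2403 FPKM. Most of this sum was the level of a single gene, Ovgp1. Mean FPKM of Foxj1 was 23.0 for the WT group and 34.2 for the ERβKO group. For Pax8 these means were 13.2 and 15.9.

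Levels are given as FPKM, the fragments per length of gene and per total of mapped fragments, so that they can be compared between genes. Fosl2 was by far the most abundant of the 10 genes, with a mean of 46.7 FPKM over the 9 libraries, followed by Egr1 (12.3), Jun (10.7), Jund (5.96), Ier2 (4.45), Fos (3.39), Junb (2.25), Egr2 (0.712), Egr3 (0.424) and Fosb (0.254). Fosl2 exceeded Egr1 in 9 of 9 libraries, and Jun exceeded Jund, Jund exceeded Ier2, Junb exceeded Egr2 and Egr2 exceeded Egr3 in 9 of 9 libraries as well. The remaining neighbours in this order were not separated, since Egr1 exceeded Jun in 3 of 9 libraries, Ier2 exceeded Fos in 7, Fos exceeded Junb in 6 and Egr3 exceeded Fosb in 7. Fosb, Egr2 and Egr3 thus formed the lowest group in the whole ovary.

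**Figure D1:**
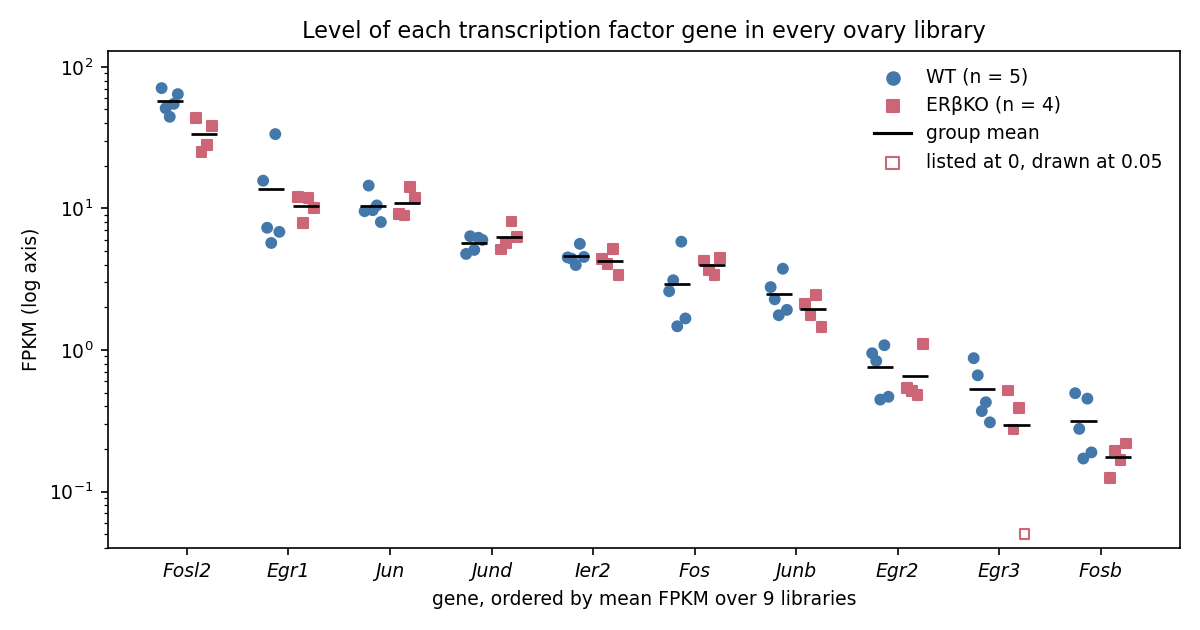
Level of each transcription factor gene (FPKM, log axis) in 5 WT and 4 ERβKO ovaries, ordered by the mean over 9 libraries, with black bars at the group means and the open square marking a library listed at 0. The groups overlap for every gene except Fosl2, whose WT libraries lie at 44.4 FPKM or more and whose ERβKO libraries lie at 43.5 FPKM or less.

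None of the 10 genes was called between the genotypes, where a call needed an adjusted p under 0.05 from the quasi-likelihood test of edgeR (Benjamini-Hochberg adjustment over all tested genes), a log2 fold change beyond 0.4 in either direction and a mean level above 1 FPKM in WT or ERβKO ovaries. Of all tested genes, 1.72% were called, 0.801% lower and 0.915% higher in ERβKO ovaries. Before adjustment, 2 of the 10 genes, Fosl2 and Fosb, had a p under 0.05, as did 19.8% of all tested genes. The study itself used DESeq2 with these thresholds. With DESeq2 on the same counts, Fosl2 was the 1 gene of the 10 that was called, and 4.80% of all genes were. Log2 fold changes, given as ERβKO over WT, were below 0 for 7 of the 10 genes (50.1% of all tested genes), with a median of -0.29 against -0.00 over all tested genes.

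Fosb and Fosl2 of the FOS family had the largest log2 fold changes of the 10 genes. Fosl2 (ENSMUSG00000029135, chromosome 5 of GRCm38 from 32135801 to 32157842, plus strand) encodes FRA-2, a FOS protein that lacks the strong activation domain of FOS. It stood at 70.8, 51.0, 44.4, 54.8 and 64.2 FPKM in WT replicates 1 to 5 and at 43.5, 24.9, 28.2 and 38.4 FPKM in ERβKO replicates 1 to 4. Every ERβKO library was below every WT library, with ERβKO replicate 1 and WT replicate 3 less than 1 FPKM apart at the boundary. Of all tested genes, 7.96% had no overlap between the genotypes in log2 CPM, the counts scaled to the size of the library on a log2 scale, and 4.04% had no overlap and were lower in ERβKO ovaries. The mean FPKM was 57.0 ± 10.5 over the 5 WT libraries and 33.8 ± 8.70 over the 4 ERβKO libraries (SD), a difference of -23.3 FPKM (two-sided exact permutation test, p = 0.0159, where the smallest p allowed is 0.00794). The log2 fold change of Fosl2 was -0.80 (standard error 0.185), and the adjusted p was 0.0552 by edgeR and 0.00123 by DESeq2. The call turned on the processing and on single libraries. In edgeR the adjusted p was 0.0338 without WT replicate 2, 0.0398 without WT replicate 3, 0.0439 without ERβKO replicate 1 and 0.0329 with no filter on low counts. It was between 0.0958 and 0.140 when each of the other 6 libraries was left out in turn and 0.206 with the libraries numbered below 200, which leave out WT replicates 4 and 5. Over all fits, the log2 fold changes of Fosl2 ran from -0.93 to -0.66.

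Fos (ENSMUSG00000021250, chromosome 12 from 85473890 to 85477273, plus strand), the founding member of the family, showed no such separation. Its level was 2.60, 3.11, 1.47, 5.82 and 1.67 FPKM in WT libraries and 4.29, 3.66, 3.39 and 4.47 FPKM in ERβKO libraries. The ERβKO libraries lay close together within the wide WT range, and WT replicate 4 was the highest of all. For Fos the log2 fold change was 0.37 with a standard error of 0.356 (adjusted p 0.607, edgeR with Benjamini-Hochberg adjustment). Fosb (ENSMUSG00000003545, chromosome 7 from 19302721 to 19310045, minus strand) was the lowest of the 10 genes, with 0.495, 0.277, 0.171, 0.453 and 0.189 FPKM in WT libraries and 0.124, 0.195, 0.167 and 0.218 FPKM in ERβKO libraries. These levels rested on 11 to 38 fragments per library, and WT replicates 1, 2 and 4 were above every ERβKO library. For Fosb the log2 fold change was -0.83 with a standard error of 0.365, an unadjusted p of 0.0454 and an adjusted p of 0.243 (edgeR, Benjamini-Hochberg). Within the summed FPKM of the 3 FOS genes, Fosl2 made up 89.7 to 97.2% in WT and 86.6 to 90.8% in ERβKO ovaries, so that the family total followed Fosl2, at 46.0 to 73.9 FPKM in WT libraries and 28.7 to 47.9 FPKM in ERβKO libraries.

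The 3 JUN genes, whose products pair with FOS proteins or with each other, each had ranges that overlapped between the genotypes. Jun (ENSMUSG00000052684, chromosome 4 from 95049034 to 95052222, minus strand) was at 9.56, 14.5, 9.72, 10.5 and 8.01 FPKM in WT libraries and at 9.14, 8.90, 14.2 and 11.8 FPKM in ERβKO libraries. WT replicate 2 and ERβKO replicate 3 were the highest libraries of their genotypes, and the ranges covered nearly the same values. Its log2 fold change was 0.05 (standard error 0.180, adjusted p 0.913, edgeR with Benjamini-Hochberg adjustment) and fell below 0 when WT replicate 5 or ERβKO replicate 3 was left out. Junb (ENSMUSG00000052837, chromosome 8 from 84976909 to 84978748, minus strand), which can restrain JUN, was at 2.78, 2.28, 1.76, 3.75 and 1.92 FPKM in WT libraries and at 2.10, 1.77, 2.44 and 1.46 FPKM in ERβKO libraries. WT replicate 4 was again the highest library, and ERβKO replicate 4 was the lowest. The log2 fold change of Junb was -0.35 (standard error 0.236, adjusted p 0.446). Jund (ENSMUSG00000071076, chromosome 8 from 70697739 to 70700616, plus strand), the most constantly expressed of the family, was at 4.77, 6.36, 5.09, 6.21 and 5.99 FPKM in WT libraries and at 5.12, 5.69, 8.09 and 6.29 FPKM in ERβKO libraries, and ERβKO replicate 3 stood above the others. Its log2 fold change was 0.10 (standard error 0.146, adjusted p 0.737). Of the annotated exon bases of Jund, 52.6% overlap exons of genes on the opposite strand, as do 7.28% for Jun and 7.52% for Junb. The sources do not say if reads were counted by strand, so the share of reads from these neighbours is not known. Jun made up 50.3 to 62.8% of the summed FPKM of the family in WT and 54.4 to 60.3% in ERβKO ovaries.

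Among the EGR genes, Egr1 spread widely between the WT libraries. Egr1 (ENSMUSG00000038418, chromosome 18), which LH induces in granulosa cells, was at 15.7, 7.30, 5.70, 33.5 and 6.83 FPKM in WT libraries and at 12.0, 7.91, 11.9 and 10.1 FPKM in ERβKO libraries. WT replicate 4 stood 5.88-fold above WT replicate 3, and all 4 ERβKO libraries fell between WT replicates 2 and 1. For Egr1 a log2 fold change of -0.44 was fitted (standard error 0.480, adjusted p 0.658, edgeR with Benjamini-Hochberg adjustment), and without WT replicate 4 it was 0.20. Egr2 (ENSMUSG00000037868, chromosome 10 from 67535475 to 67542188, plus strand), best known from hindbrain and Schwann cells, was at 0.948, 0.836, 0.446, 1.08 and 0.467 FPKM in WT libraries and at 0.536, 0.515, 0.483 and 1.10 FPKM in ERβKO libraries. WT replicates 1, 2 and 4 and ERβKO replicate 4 were high and the other 5 libraries were low, with no line between the genotypes. Its log2 fold change was -0.24 (standard error 0.357, adjusted p 0.753). Egr3 (ENSMUSG00000033730, chromosome 14 from 70077445 to 70080157, plus strand), a relative of EGR1 with a similar DNA-binding domain, was at 0.875, 0.662, 0.370, 0.427 and 0.308 FPKM in WT and at 0.517, 0.274 and 0.387 FPKM in ERβKO replicates 1 to 3. In ERβKO replicate 4 it was listed at 0 FPKM although 5 fragments were counted. Its counts of 5 to 22 gave a log2 fold change of -0.65 (standard error 0.359, adjusted p 0.351). Egr1 made up 83.0 to 95.7% of the summed EGR FPKM in WT and 90.2 to 93.2% in ERβKO ovaries.

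Ier2 (ENSMUSG00000053560, chromosome 8 from 84661331 to 84662852, minus strand) varied least. It was at 4.51, 4.41, 3.98, 5.62 and 4.54 FPKM in WT libraries and at 4.40, 4.06, 5.14 and 3.38 FPKM in ERβKO libraries, and the ranges of the groups overlapped from 3.98 to 5.14 FPKM. The log2 fold change was -0.13 (standard error 0.149, adjusted p 0.672, edgeR with Benjamini-Hochberg adjustment). Like Jun and Jund it is annotated with 1 exon block, and with Junb and Jund it is 1 of the 3 genes on chromosome 8, where its end lies 314 kb from Junb. The direction of all log2 fold changes held in every fit tried except for Jun, Jund and Egr1.

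**Figure D2:**
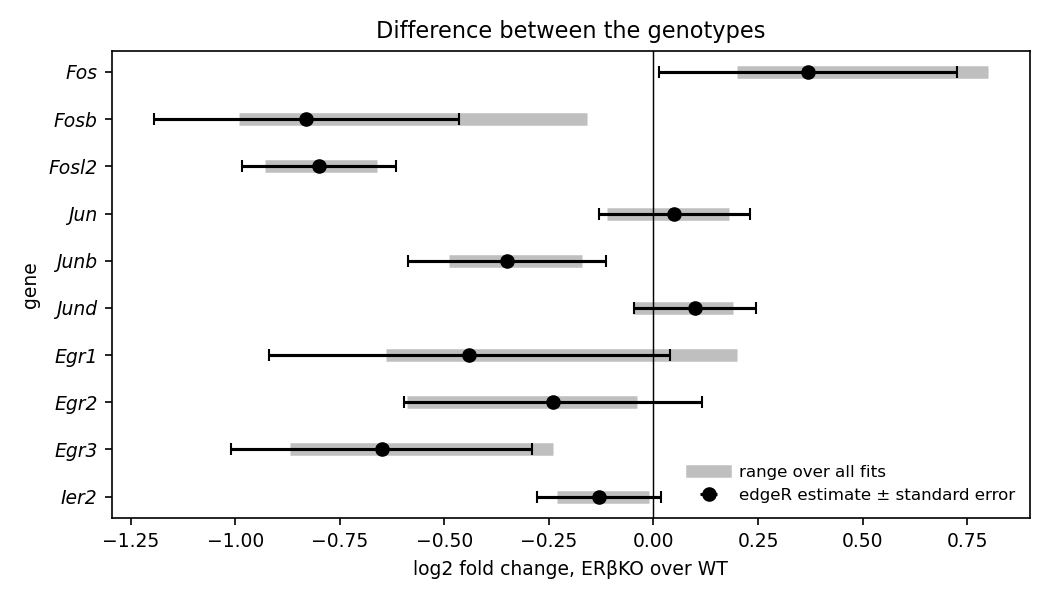
Log2 fold change (ERβKO over WT) of each gene from edgeR, with its standard error as whiskers and the range over all fits as a grey bar. The estimate for Fosl2 is -0.80 and its range of -0.93 to -0.66 is narrow, while the ranges of Jun, Jund and Egr1 cross 0.

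RNA from whole ovaries does not separate cell types, and fewer cells of a type and less RNA per cell cannot be told apart. The values of ovarian cell type markers are given beside the difference in Fosl2. All 7 luteal markers had log2 fold changes below 0 (median -0.86), none of them was called, and their summed level was 2698 to 6450 FPKM in WT libraries and 2531 to 3304 FPKM in ERβKO libraries. Star, which brings cholesterol into mitochondria, was at 217, 73.8, 185, 187 and 324 FPKM in WT libraries and at 66.5, 34.9, 85.4 and 26.7 FPKM in ERβKO libraries (log2 fold change -1.91, adjusted p 0.0573, edgeR with Benjamini-Hochberg adjustment), and Cyp11a1, the first enzyme of steroid synthesis, had a log2 fold change of -0.86 (adjusted p 0.128). Of all tested genes, 1.72% were called, 0.801% lower and 0.915% higher. Granulosa markers moved the other way, with 2 of 9 called higher, a median of 0.71 and a summed level of 542 to 679 FPKM in WT libraries and 740 to 1014 FPKM in ERβKO libraries. These 2 were Inhbb, a subunit of activin and inhibin, with 46.2 ± 6.14 FPKM over the 5 WT and 100 ± 20.8 FPKM over the 4 ERβKO libraries (SD; log2 fold change 1.09, adjusted p 0.00883, edgeR), and Hsd17b1, which makes estradiol (log2 fold change 0.77, adjusted p 0.0363, edgeR). Among theca markers 1 of 5 tested was called higher, Aldh1a1 (log2 fold change 1.05, adjusted p 0.0139, edgeR), and Cyp17a1, the enzyme of androgen synthesis, stood at 2.35 with an adjusted p of 0.205 (edgeR). The median log2 fold change of the 5 tested theca markers was 0.12, with 1 of them below 0, and the theca markers summed to 465 to 728 FPKM in WT libraries and 836 to 1718 FPKM in ERβKO libraries. The part of these cell types in the level of Fosl2 was not tested. Within the genotypes, the correlation of Fosl2 with the mean of the luteal markers was 0.39 over the 9 libraries and with that of the granulosa markers -0.57. In exact permutation within genotype, p was 0.319 and 0.159 (adjusted over 19 lists, 0.744 and 0.603). Spearman's rho was 0.50 and -0.50 (exact permutation p = 0.187 and 0.230, adjusted 0.619 and 0.619). These 2 lists belong to a set of 19 that was compared with Fosl2 after its values were seen. In that set the surface epithelium markers (-0.93), the endothelial markers (0.80) and the known target genes of AP-1 and EGR factors (-0.67) lay farther from 0 than both. Upstream kinases and factors (0.52), oviduct (-0.44) and stromal markers (-0.41) lay farther from 0 than the luteal markers only.

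In the other marker lists no gene was called, where 1.72% of all tested genes were. Their median log2 fold changes were 0.42 for oocytes, -0.09 for endothelium, -0.18 for smooth muscle, 0.02 for stroma, 0.06 for macrophages, 0.28 for mast cells, 0.12 for erythroid cells, 1.20 for adipocytes, 0.25 for oviduct and 0.29 for surface epithelium. Of the 5 neutrophil markers only Csf3r passed the filter on low counts, with a log2 fold change of -0.10. Adipocyte markers summed to 55.3 to 173 FPKM in the WT libraries and to 48.7 to 320 FPKM in the ERβKO libraries.

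None of the other immediate early genes was called either, where 1.72% of all tested genes were. Of 28 listed, Fosl1 and Egr4 did not pass the filter on low counts, and 0 of the 26 tested were called, with a median log2 fold change of -0.01 and a range from -1.37 to 0.70. Before adjustment, 5 of the 26 had a p under 0.05, where 19.8% of all tested genes did. Dusp1, a phosphatase that switches off MAP kinases, had the smallest p. It was at 17.4, 5.28, 5.39, 24.8 and 15.8 FPKM in WT libraries and at 5.96, 6.51, 5.19 and 5.18 FPKM in ERβKO libraries, so that WT replicates 1, 4 and 5 were high while WT replicates 2 and 3 lay with the ERβKO libraries. Its log2 fold change was -1.37 (standard error 0.436, adjusted p 0.125, edgeR with Benjamini-Hochberg adjustment). Ppp1r15a, which restores protein synthesis after stress, was at 13.5, 15.5, 9.71, 10.5 and 11.1 FPKM in WT libraries and at 14.2, 17.4, 18.3 and 15.3 FPKM in ERβKO libraries. The groups overlapped through WT replicate 2, and its log2 fold change was 0.37 (standard error 0.126, adjusted p 0.149). Without WT replicate 2, Dusp1 and Ppp1r15a were both called, whereas 912 of all tested genes were then called in place of 287.

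No gene of the lists around these factors was called, where 1.72% of all tested genes were. In lists this short, 0 calls lies near that share and does not set the lists apart. Of 16 upstream kinases and factors, which include SRF, its ELK partners and CREB1, 0 were called and the median log2 fold change was -0.03. Of 10 other leucine zipper partners and EGR corepressors, 0 were called and the median was 0.10. Mafk (log2 fold change 0.27, adjusted p 0.248, edgeR) and Maf (-0.33, adjusted p 0.349, edgeR), which pair through the same kind of zipper, had the smallest p. Of 12 known target genes of AP-1 and EGR factors, 0 were called and the median was -0.10. The inhibitor of matrix proteases Timp1 was at 45.9, 72.0, 88.7, 24.2 and 26.7 FPKM in WT libraries and at 15.8, 18.5, 27.8 and 29.1 FPKM in ERβKO libraries, and its log2 fold change was -1.20 with a standard error of 0.380 (adjusted p 0.123, edgeR). WT replicate 4, which was highest in Fos and Egr1, was the lowest WT library in Timp1. Plaur, the urokinase receptor, had a log2 fold change of -0.54 (adjusted p 0.225, edgeR).

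Besides the genotypes, single ovaries were compared with each other, since early genes respond to the state of the tissue at the time it is taken. The standard deviation of log2 CPM within the genotypes was 0.82 for Egr1, 0.61 for Fos, 0.57 for Egr2, 0.52 for Fosb and 0.48 for Egr3, against a median of 0.20 over all tested genes. Egr1 varied more than 97.6% of all tested genes and Fos more than 93.0%. Counting error alone would give a standard deviation of 0.04 for Egr1 and 0.12 for Fos, but 0.32 for Fosb and 0.39 for Egr3, which is a large part of the spread of these 2 genes. Junb (0.37), Fosl2 (0.32), Jun (0.31), Jund (0.24) and Ier2 (0.21) varied less. Fosl2, with 3336 to 7808 fragments per library, had a counting error of 0.02 and lay at the 70.1th percentile of spread.

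**Figure D3:**
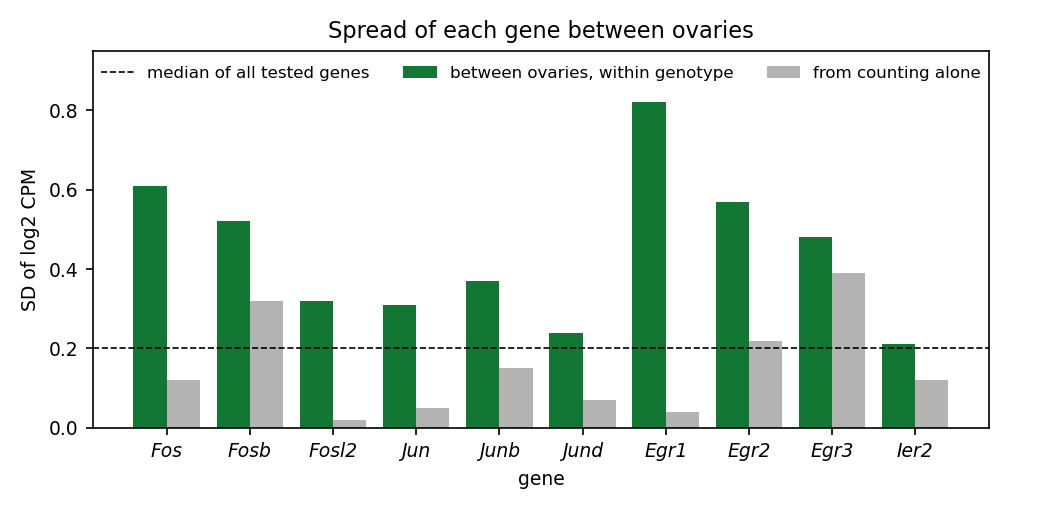
Standard deviation of log2 CPM between ovaries within genotype for each gene (green bars), beside the standard deviation that counting alone would give (grey bars) and the median of all tested genes (dashed line, 0.20). Egr1 (0.82) and Fos (0.61) spread far beyond their counting error, while for Egr3 the bars stand at 0.48 and 0.39.

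The high and low values were not scattered evenly over the ovaries. WT replicate 4 was the highest of the 5 WT libraries in FPKM for 5 of the 10 genes and WT replicate 1 for 3, while WT replicate 3 was the lowest for 7. Among the ERβKO libraries, replicate 3 was highest for 4 genes, replicates 1 and 4 for 3 each, and replicates 2 and 4 were lowest for 3 each. The mean deviation of the 10 genes, each expressed in units of its own standard deviation, was 0.92 in WT replicate 4 and -0.99 in WT replicate 3, and ran from -0.47 to 0.51 in the ERβKO libraries. WT replicates 4 and 5 carry library numbers above 200 and all others below it, and what the numbers mark is not stated. These 2 libraries lay on opposite sides, at 0.92 and -0.49, with 14880505 and 13593489 fragments, within the range of the other WT libraries.

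**Figure D4:**
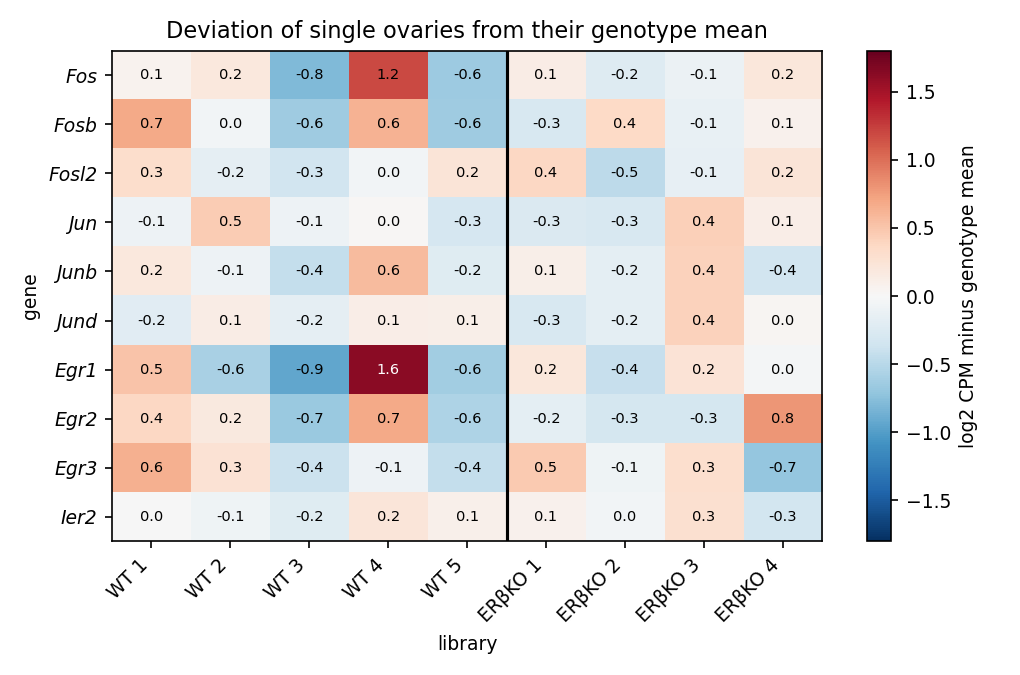
Deviation of log2 CPM from the genotype mean (colour and printed value) for each gene in every library, with a line between the 5 WT and 4 ERβKO libraries. WT replicate 4 is raised in Fos and Egr1, and WT replicate 3 is lowered in nearly every gene.

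To describe which factors moved together, log2 CPM after subtraction of the genotype means was correlated for all 45 pairs of the 10 genes over the 9 libraries, with exact permutation of libraries within each genotype (2880 permutations, smallest p 0.000347). After Benjamini-Hochberg adjustment over the 45 pairs, 0 pairs passed 0.05, by Pearson or by Spearman correlation. At an unadjusted p under 0.05, 5 pairs remained. The median r was 0.31, against 0.00 over all pairs of tested genes, and 8 pairs (17.8%) had an r over 0.7, where 3.72% of all gene pairs did. Without WT replicate 4, 5 of the 45 pairs had an r over 0.7 and the median r was 0.33. The share of all gene pairs was not computed without it. The 10 genes share pathways and libraries, so the 45 pairs are not independent of each other.

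The pairs with the smallest p joined Fos or Junb with an EGR gene. Fos and Egr2 had a Pearson's r of 0.83 (exact permutation p = 0.00208, adjusted 0.0625) and a Spearman's rho of 0.92 (exact permutation p = 0.00451, adjusted 0.109). This relation was little changed without WT replicate 4 (r = 0.83) or without WT replicates 3 and 4, the libraries farthest from the median of Fos (r = 0.79). For Junb and Egr1, r was 0.86 (exact permutation p = 0.00278, adjusted 0.0625) and rho 0.87 (exact permutation p = 0.00486, adjusted 0.109), and r was 0.82 without WT replicate 4 and ERβKO replicate 3. Fos and Egr1 had the highest r of all pairs, 0.87 (exact permutation p = 0.0243, adjusted 0.273), but a rho of 0.63 (exact permutation p = 0.170, adjusted 0.671). This pair rested on WT replicates 3 and 4, since r was 0.41 without them and 0.59 without WT replicate 4 alone. Junb and Ier2 had an r of 0.84 (exact permutation p = 0.00799, adjusted 0.120) and a rho of 0.77 (exact permutation p = 0.0326, adjusted 0.490), with 0.67 without the libraries farthest from the median. The pair Jun and Jund had an r of 0.73 (exact permutation p = 0.0486, adjusted 0.380; rho 0.65, p = 0.0826, adjusted 0.671), which was 0.38 without WT replicate 2 and ERβKO replicate 3, the libraries with the most Jun.

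**Figure D5:**
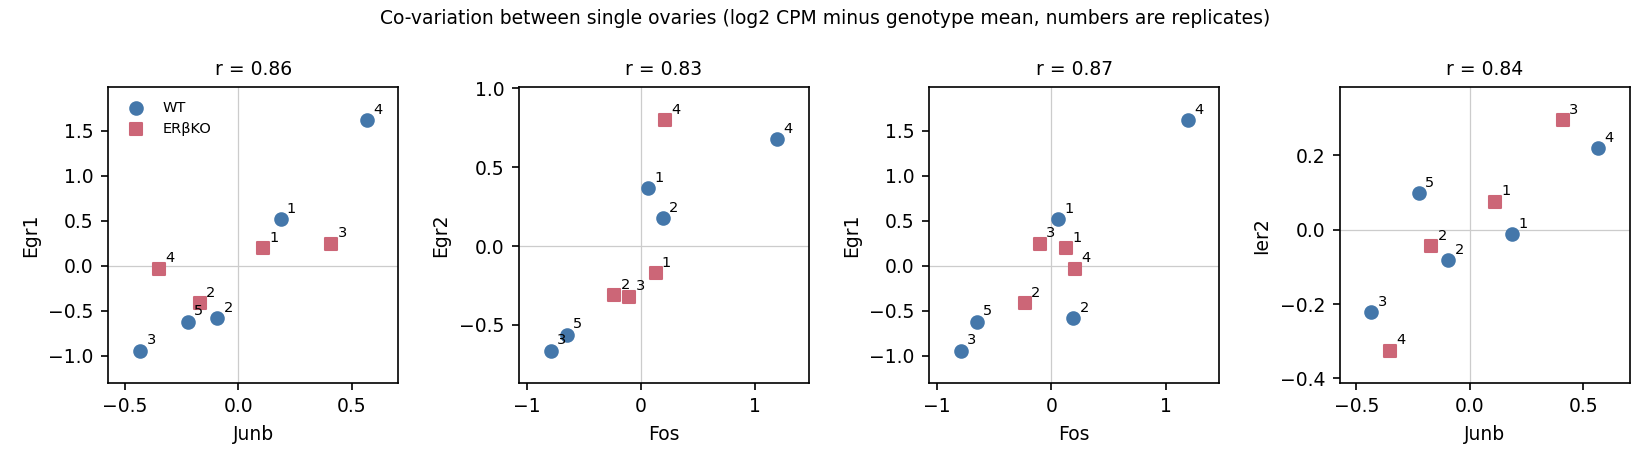
Log2 CPM minus genotype mean of 4 pairs of genes in single ovaries (circles WT, squares ERβKO, numbers are replicates), with Pearson's r above each panel. WT replicate 4 lies at the upper right of the pair Fos and Egr1, whose r falls from 0.87 to 0.59 without it, while Fos and Egr2 keep 0.83.

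Fosl2 had correlations of 0.20 with Fos (exact permutation p = 0.615, adjusted 0.910), 0.31 with Egr1 (exact permutation p = 0.398, adjusted 0.857), -0.20 with Jun (exact permutation p = 0.649, adjusted 0.910) and -0.17 with Jund (exact permutation p = 0.738, adjusted 0.923). The corresponding rho values were 0.30, 0.42, -0.27 and -0.37. The values of r depended on single libraries. Without WT replicate 4, r was 0.65 with Egr1 and 0.43 with Fos, and without WT replicate 3 it was 0.12 and -0.07. With Jun and Jund, r was -0.20 and -0.16 without WT replicate 4, but -0.64 and -0.49 without ERβKO replicate 2. When each library was left out in turn, r ran up to -0.02 with Jun and up to 0.12 with Jund. Jun had an r of 0.29 with Fos, its classical partner (exact permutation p = 0.457, adjusted 0.857; rho 0.52, p = 0.191). Whether these correlations differ from those of the pairs above was not tested.

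The correlation of Fos with 19 list means was computed to give the state of the tissue beside the spread, and 0 lists passed an adjusted p of 0.05. With the mean of the 26 other immediate early genes r was 0.57 (exact permutation p = 0.227, adjusted 0.861; rho 0.55, p = 0.199), and without WT replicates 3 and 4 it was 0.22. For the 9 heat shock genes, which rise when tissue is stressed during handling, r was -0.03 (exact permutation p = 0.941, adjusted 0.941) and rho 0.07 (exact permutation p = 0.883). This r was 0.20 without WT replicate 4 and 0.43 without WT replicates 3 and 4. The heat shock genes themselves had 0 of 9 called, where 1.72% of all tested genes were. Their median log2 fold change was 0.11, with Hspd1 at -0.38 (adjusted p 0.143, edgeR) and Hsph1 at 0.30 (adjusted p 0.262, edgeR). With the granulosa markers, the cells in which the hormonal response of Fos is best described, r was -0.53 (exact permutation p = 0.0861, adjusted 0.861; rho -0.53, p = 0.155), and -0.29 without WT replicate 4. The r farthest from 0 was -0.64, with the 12 known target genes of AP-1 and EGR factors (exact permutation p = 0.114, adjusted 0.861; rho -0.65, p = 0.0983), and it was -0.25 without WT replicate 4 and 0.02 without WT replicates 3 and 4.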

How the data were processed

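Whole-ovary RNA of 5 WT and 4 ERβKO libraries was sequenced after poly-A selection with a stranded kit. The authors trimmed reads with Trim Galore, mapped them with STAR to mm10 (GRCm38) and deposited raw counts per gene from featureCounts, without normalization. The authors also deposited StringTie FPKM, TPM and mean coverage per gene; TPM and coverage were not used. Replicates were not pooled. The 46078 genes were filtered with edgeR's filterByExpr, normalized by TMM and compared with edgeR's quasi-likelihood test (edgeR 4.0.16, R 4.3.3; common biological coefficient of variation 0.179) with Benjamini-Hochberg adjustment over 16722 genes. DESeq2 1.42.0 and limma 3.58.1, other normalizations, filters, pseudocounts and left-out libraries were alternatives. Log2 CPM used a prior count of 2. The depth of 12353740 to 18717510 fragments limits precision through counting error, which is given for each gene. Single values were compared with exact permutation tests in Python 3.11.15 with SciPy 1.17.1 over 126 splits. Named genes were the 10 transcription factors, the genes called in each other list or else the 2 with the smallest p, the 10 genes most like the factors, and Esr2. Zfp36 was added after its values were seen. The factors and lists were chosen with earlier results of these data known. The replicate numbers did not pair the libraries (correlations of -0.04 to 0.13). The statistics were tested on simulated data. In 1 set of simulated counts with 200 changed genes, calls at an adjusted p under 0.05 were false for 2.66% with edgeR and 3.16% with limma. The false share was higher with the replicate block (8.24%) and with DESeq2 (21.2%). The simulated counts used the spread that edgeR estimated and held no block effect, and calls in them needed no fold change or FPKM limit. These shares therefore do not carry over to the calls of Fosl2. It was called by both of these fits. Without a block, edgeR also called it with no filter on low counts and without WT replicate 2, WT replicate 3 or ERβKO replicate 1. The marker lists cover granulosa, luteal, theca, oocyte, endothelial, smooth muscle, stromal, macrophage, neutrophil, mast, erythroid, adipocyte, oviduct and surface epithelial cells. The p-values judge genotype differences and correlations against the variation between these libraries, and do not measure that variation. Overlap of exons with genes on the opposite strand used GENCODE M21. Values of some single genes are left out of this text.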

Additional observations from a re-analysis of the deposited data

Results flagged for a closer look

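Among the FPKM values of the 10 genes in the 2 genotypes (20 groups), 1 group held a library far from the others. Egr2 stood at 1.10 FPKM in ERβKO replicate 4, and the other 3 ERβKO libraries lay between 0.483 and 0.536 FPKM. The gap to the nearest of them was 0.913 of the range of the group. Dixon's 95% critical value, the limit used, is by its construction passed by chance in about 1 in 20 groups. The library did not stand apart in Fos (4.47 FPKM) and was the lowest ERβKO library in Junb (1.46 FPKM) and Ier2 (3.38 FPKM), and 63 Egr2 fragments were counted in it.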

How the results depend on the processing

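Of 189 log2 fold changes of the 10 genes under the alternatives, 176 kept their direction and their side of the threshold, 6 became calls and 7 reversed. The 6 calls were of Fosl2, so that 1 of the 10 genes was called with DESeq2, with no filter on low counts and with a replicate block (adjusted p 0.0394, edgeR with Benjamini-Hochberg adjustment), and between 0 and 1 when single libraries were left out. The other immediate early genes gave between 0 and 2 calls when single libraries were left out. Jun reversed to -0.03 with the replicate block, to -0.04 with the libraries numbered below 200, to -0.02 without WT replicate 5 and to -0.11 without ERβKO replicate 3. Egr1 reversed to 0.12 with the libraries numbered below 200 and to 0.20 without WT replicate 4, and Jund to -0.05 without ERβKO replicate 3. With single libraries left out, Jun ranged from -0.11 to 0.18, Jund from -0.05 to 0.19 and Egr1 from -0.64 to 0.20. The cause was not tested. The block changed no other call among these genes, and called 155 of all tested genes in place of 287. No library correlated best with the library of its own number in the other genotype (r of 0.09, 0.13, -0.04 and -0.01 for replicates 1 to 4). The number of all genes called ranged from 60 without ERβKO replicate 2 to 912 without WT replicate 2, and was 802 with DESeq2, 51 with the libraries below 200, and 161, 190 and 39 with limma on log2(FPKM + 1), log2(FPKM + 0.1) and log2(FPKM + 1) without a filter. No pair of the 10 genes passed an adjusted p of 0.05 under any alternative. Counts of 5 to 38 fragments limit what can be said of Egr3 and Fosb.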

Other observations

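Among the other immediate early genes, Zfp36, which encodes an RNA-binding protein that speeds the decay of early transcripts, followed the 10 transcription factors most closely. It was singled out after its values were seen, so no test is given. Its level was 15.2, 13.2, 8.13, 16.7 and 10.4 FPKM in WT and 10.1, 9.66, 9.83 and 8.14 FPKM in ERβKO ovaries, highest in WT replicate 4 and lowest in WT replicate 3, as for Fos and Egr1. Its correlation with the mean deviation of the 10 factors was 0.92 after subtraction of the genotype means. Over the 26 other immediate early genes this correlation had a median of 0.42, was above 0 for 20 and was over 0.5 for 9, among them Csrnp1 (0.68), Nr4a2 (0.65), Atf3 (0.60) and Dusp1 (0.57). Gadd45b (-0.45) and Arc (-0.25) ran the other way. These genes, too, were named after their values were seen.

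Outside the lists, the 10 genes whose pattern over the 9 libraries was most like that of the factors were Emc8 (r = 0.95), Stk16 (0.94), Gm14122 (0.94), Gm26521 (0.93), Map3k3 (0.92), Ntng1 (0.92), Rbm26 (0.91), Ush1g (0.90), Sox5 (0.90) and L3mbtl3 (0.89). They are the highest of all tested genes outside the lists and were picked for their likeness. Without WT replicate 4 they ranged from 0.80 to 0.94.

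After the values of Fosl2 were seen, its genotype-centred log2 CPM was also set against the 19 list means. Surface epithelium markers had an r of -0.93 (exact permutation p = 0.00278, adjusted 0.0528) and a rho of -0.97 (exact permutation p = 0.00278, adjusted 0.0528), and r was -0.89 without the 2 libraries farthest from the median. Endothelial markers had an r of 0.80 (exact permutation p = 0.0167, adjusted 0.158) and a rho of 0.83 (exact permutation p = 0.0118, adjusted 0.112), with 0.71 without those 2 libraries. The known target genes of AP-1 and EGR factors had an r of -0.67 (exact permutation p = 0.0635, adjusted 0.402) and a rho of -0.67 (exact permutation p = 0.0660, adjusted 0.418). Their r was -0.92 without WT replicate 4 and -0.63 without the 2 libraries farthest from the median. None of the 19 lists passed an adjusted p of 0.05.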
